A study of Mus musculus with 8 samples.

Results

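Long intergenic non-coding RNAs (lincRNAs) on the autosomes were compared between the testes of Sync-Spdya cKO mice and their controls, Sync-Spdya fl/fl. The lincRNAs were chosen by their annotated biotype, a location on chromosomes 1 to 19 and a mean of at least 5 FPKM over the 8 libraries (fragments per kilobase of gene length, relative to a scaled library size), with H19 and Meg3 left out. This selected 118 of the 4915 autosomal lincRNAs in a table of 54532 genes. H19 and Meg3 had means of 3.18 and 1.46 FPKM and would not have passed. The level that selected them is a description and was not tested, and the difference between the groups was not part of the choice. In 113 of the 118 lincRNAs both group means were at least 5 FPKM. Gm31126, Gm6639, Gm13814 and Gm20300 reached 5 FPKM in the control mean alone, and Gm47064 in the cKO mean alone.

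Each group held 4 mice on a C57BL/6J background, with 1 library per mouse. Spermatogenesis was synchronized in all mice with an inhibitor of retinoic acid synthesis, followed by retinoic acid on postnatal day 9, and testes were collected at RA11.5, in mid-late pachynema. All mice carried Spdya fl/fl alleles and received tamoxifen, at RA7.5 and RA8.5 per the labels, while the study's methods give slightly earlier times. The cKO mice also carried Ddx4-CreERT2, which acts in germ cells and removes exon 2 of Spdya, the gene for an activator of CDK2 found at telomeres in meiosis. The study found the protein lost in nearly all pachytene cells of these synchronized cKO mice, and whole testes also hold Sertoli, Leydig, peritubular, immune and endothelial cells. In bulk RNA, fewer cells of a type and less RNA per cell cannot be told apart. Spdya over its whole length had a log2 fold change of 0.15, and since the deleted exon is a small part of it, this gave no check of the labels. Control replicate 1 stood apart: it differed from the other controls by 59.4 to 80.6 times the sampling noise per gene, against 12.2 to 20.8 among these.

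lincRNAs are transcribed by RNA polymerase II, spliced and polyadenylated like mRNAs, but are annotated without a protein product. The testis is known for its large repertoire of such transcripts, many of them appearing in pachytene spermatocytes, when chromatin is widely open to transcription. In these cells the factor A-MYB (Mybl1) activates meiotic genes and long precursors of pachytene piRNAs, often from promoters that fire in both directions. The table does not mark which lincRNAs are piRNA precursors.

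Names in this class record how a transcript was first found. RIKEN clones whose prefixes belong to adult testis libraries gave 31 of the 118 names (26.3%), against 530 of the 4797 autosomal lincRNAs below 5 FPKM (11%). Of the remainder, 56 were Gm gene models, 16 other RIKEN clones, 4 clone-based names and 11 other names. RefSeq held 86 of the 118 by symbol or synonym, all but Gm14152 at an overlapping position, and listed 79 of them as lncRNA, 5 as protein-coding and 2 as pseudogenes. The coding label goes against the biotype in the table for 1810058I24Rik, Tmem250-ps, D930016D06Rik, Gm13942 and C2cd6b. For the 2 listed as pseudogenes, 1700018B24Rik and Gm10076, fragments can be shared with the parent gene.

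The lincRNAs lay closer to protein-coding genes than the remainder of the class. Their median distance to the nearest coding gene was 11246 bases, against 35868 bases for the 4797 lincRNAs below 5 FPKM. In 21 of the 118 (17.8%) transcription started within 1000 bases of a coding gene on the opposite strand and ran away from it, against 225 of the 4797 (4.69%). Overlap with any other gene was about as frequent in both, at 35.6% and 34.8%. The median gene length was 1237 bases, in a range from 78 to 13039. Of the 118, 9 had a single exon, and Gm6639 had the most, 19. Short genes have few fragments behind their FPKM: 71 of the 118 had at least 100 fragments in every library, and 24 had fewer than 50 in some library.

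Several of these loci also hold mature microRNAs, the short RNAs that pair with targets through the seed at bases 2 to 8. RefSeq places 28 mature sequences on the same strand within 7 of the 118 lincRNAs. The main arms within Mir17hg, the host of the miR-17-92 cluster known for promoting proliferation, and arms within AC125141.3, whose groups did not overlap in level, are shown with the seed in capitals (GRCm38, 5′ to 3′).
miR-17-5p: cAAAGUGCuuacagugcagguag
miR-20a-5p: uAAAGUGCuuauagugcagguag
miR-18a-5p: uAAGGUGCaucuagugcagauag
miR-19a-3p: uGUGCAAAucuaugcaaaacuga
miR-19b-3p: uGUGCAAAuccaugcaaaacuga
miR-92a-3p: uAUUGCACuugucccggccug
miR-7217-5p: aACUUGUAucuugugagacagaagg
miR-7217-3p: uGAGAACCcacaagcaagaaga
miR-7218-5p: uGCAGGGUuuaguguagaggg
miR-17-5p and miR-20a-5p share 1 seed, and miR-19a-3p and miR-19b-3p another, so the 28 sequences hold 26 distinct seeds. Each of the 26 seeds occurred in 1 host lincRNA alone. Gm2044 hosts miR-202, a microRNA abundant in gonads, whose arms are shown in the same way.
miR-202-5p: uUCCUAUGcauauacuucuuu
miR-202-3p: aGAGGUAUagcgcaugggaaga
Mature microRNAs were not measured, because the values are those of the host gene. Gm2044 had 62.4, 39.2, 29.1 and 48.5 FPKM in control and 46.2, 53.7, 48.4 and 59.3 FPKM in cKO libraries, which overlapped (log2 fold change 0.26, standard error (SE) 0.21, limma adjusted p = 0.732). Gm2044 was chosen after its values were seen.

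Among the most abundant lincRNAs, all 10 had a lower fitted mean in cKO libraries and none was called. Together these 10 made up 41.4% of the summed FPKM of the 118. Their log2 fold changes ran from -0.93 for Rbakdn to -0.08 for 1700018B24Rik. Adjusted p ran from 0.36 upwards, and only that of Rbakdn was below 0.05 before adjustment.

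**Figure D1:**
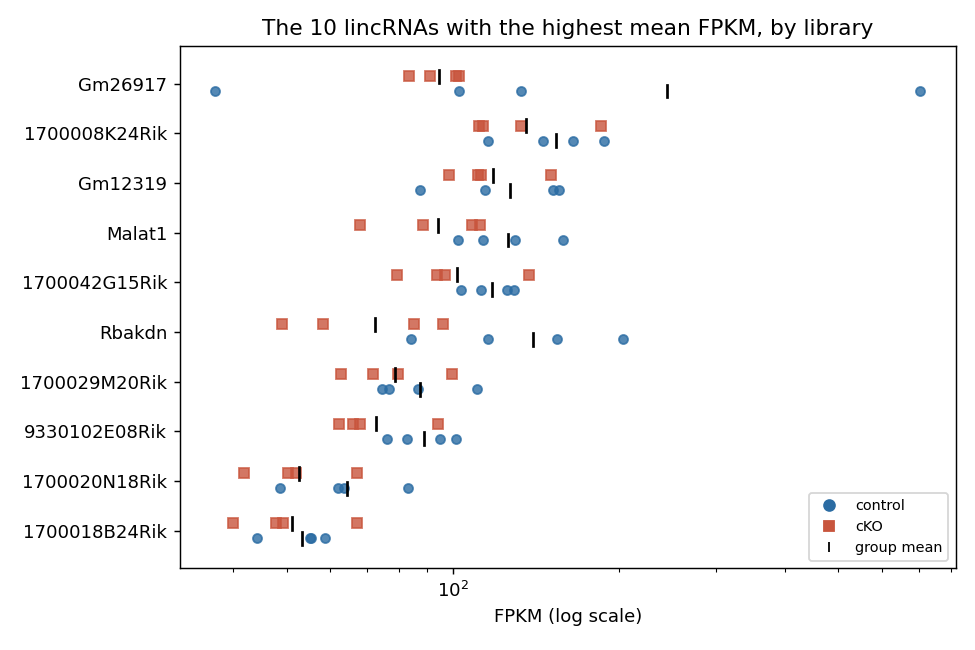
FPKM (log scale) of the 10 lincRNAs with the highest mean level, with 1 point per library (circles, control; squares, cKO) and a bar at each group mean, n = 4 each. The groups overlap in all 10, and a single control library at 704.5 FPKM sets the control mean of Gm26917.

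Gm26917 (ENSMUSG00000097971, chromosome 17 of GRCm38, 39843013 to 39846341, plus strand) ended 12 bases before the RefSeq 18S ribosomal RNA gene copy Rn18s-rs5. It had 704.5, 133.0, 102.5 and 37.1 FPKM in control libraries and 101.6, 83.3, 90.9 and 102.7 FPKM in cKO libraries. Control replicate 1 was 5.30 times the next highest library, and the log2 fold change of -0.54 (SE 0.72, limma adjusted p = 0.843) became 0.24 without it. In the same library, mitochondrial genes took 0.464% of fragments, against 2.20% to 3.74% in the other libraries. A part of ribosomal RNA or library preparation in this value was not tested. Gm42418 and AY036118, which lie in the same locus, are listed at 0 in every library.

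Malat1 (chromosome 19, 5795690 to 5802672), a nuclear RNA retained at splicing speckles, had 129.6, 102.3, 113.5 and 158.2 FPKM in control and 68.0, 112.0, 88.2 and 108.5 FPKM in cKO libraries. The cKO replicates 2 and 4 lay within the control range, and replicates 1 and 3 below it. Its log2 fold change was -0.43 (SE 0.19, limma adjusted p = 0.494; 95% interval from -0.87 to 0.01). Of the other genes fixed beside it as nuclear architecture RNAs, Neat1, the scaffold of paraspeckles, was tested with a log2 fold change of 0.01 (SE 0.23). Kcnq1ot1 and Miat were below 1 FPKM and not tested. Kcnq1ot1 had 0.572 ± 0.188 FPKM in control and 0.472 ± 0.058 FPKM in cKO libraries, and Miat 0.155 ± 0.029 and 0.095 ± 0.023 FPKM (SD, n = 4 each).

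Rbakdn (chromosome 5, 143164779 to 143165751, minus strand), a transcript downstream of the zinc finger gene Rbak, had the lowest fold change of the 10. Control libraries held 203.7, 116.1, 154.9 and 83.9 FPKM and cKO libraries 96.2, 85.1, 58.3 and 49.1 FPKM. The groups overlapped through control replicate 4. The log2 fold change was -0.93 (SE 0.30, limma adjusted p = 0.36), and Rbak itself, 6435 bases away, had 0.20 (SE 0.12).

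The testis-named lincRNAs of this group had smaller differences. 1700008K24Rik, 1700042G15Rik, 1700029M20Rik and 1700020N18Rik had control means of 153.8 ± 30.5, 117.8 ± 11.9, 87.1 ± 16.5 and 64.3 ± 14.2 FPKM and cKO means of 136.0 ± 34.8, 101.8 ± 24.9, 78.4 ± 15.7 and 52.7 ± 10.5 FPKM (SD, n = 4 each). Each difference was smaller than the larger of the 2 SDs. 1700018B24Rik had 53.4 ± 6.30 and 51.1 ± 11.4 FPKM, and 9330102E08Rik 88.7 ± 11.5 and 72.5 ± 14.6 FPKM (SD, n = 4 each), which gave -0.30 on the log2 scale (SE 0.16, limma adjusted p = 0.563). Gm12319, which starts 709 bases from the muscle-type enolase gene Eno3, had 127.3 ± 32.5 and 118.2 ± 22.6 FPKM (SD, n = 4 each).

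Gene by gene, no lincRNA of the set reached a Benjamini-Hochberg adjusted p below 0.05 by limma. The 15513 genes tested held 4 such calls, or 0.0258%. The study, with another method and a fold change cut, reported more differing genes among autosomal protein-coding genes alone, so the number of calls depends on the test. At an unadjusted p below 0.05, 14 of the 118 lincRNAs (11.9%) were lower and 4 (3.39%) higher in cKO libraries, against 5.32% and 4.96% of all genes tested. Among these lincRNAs were Gm6639, Gm13814, Gm31126 and Gm47064, which reached 5 FPKM only in the mean of the group where they were higher. Voom on the recovered fragments gave 15 and 3, and no adjusted call in the set, with 10.5% of all genes at an unadjusted p below 0.05. Of the 118, 76 had a negative log2 fold change, and the median was -0.14, against 0.00 over all genes tested. The 373 autosomal lincRNAs tested at 1 to 5 FPKM held 1 of the 4 adjusted calls. Their median was -0.06, with 9.38% lower and 2.14% higher at an unadjusted p below 0.05, so that lower ones outnumbered higher ones there as well. These values depended on single libraries. The 18 became 11 without cKO replicate 3 and 30 without cKO replicate 1, while the share of all genes, 10.3%, became 6.44% and 11.7%. The median became -0.07 without cKO replicate 4 and -0.08 without control replicate 3.

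**Figure D2:**
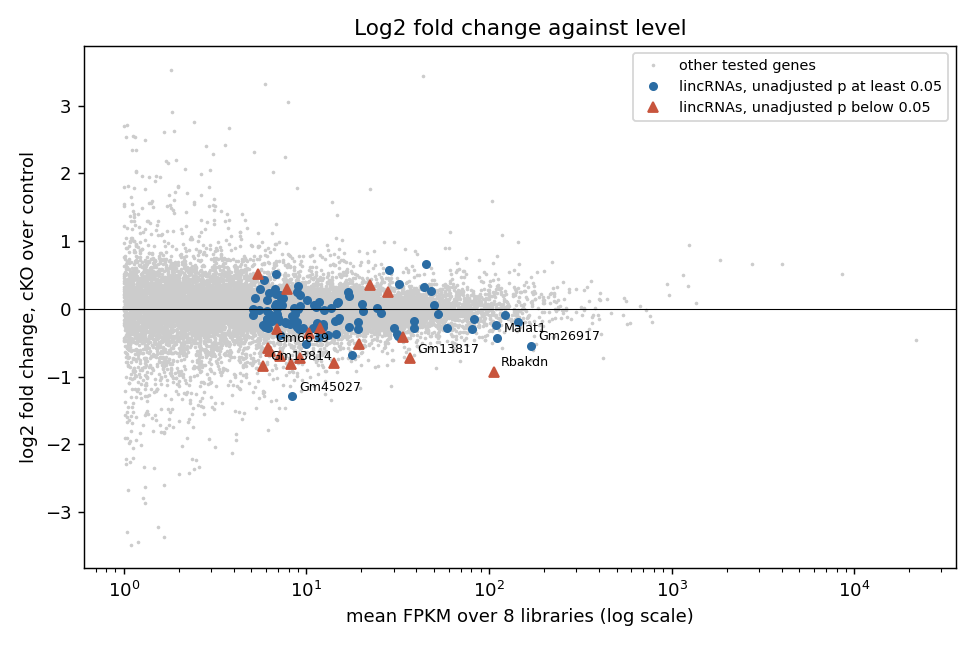
Log2 fold change (cKO over control) against the mean FPKM of 8 libraries (log scale) for the 15513 genes tested. The 118 lincRNAs are coloured (triangles, unadjusted p below 0.05), and 76 of them lie below 0, with Gm45027 lowest at -1.29.

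The precision of the fit limits small differences. The median standard error of the 118 log2 fold changes was 0.19, and the median half-width of their 95% intervals was 0.42. Only Gm45027 exceeded 1 in absolute log2 fold change, and 100 of the 118 were below 0.5. Gm45027 is 78 bases long and had from 2 to 19 fragments. Its values were 8.80, 7.78, 10.7 and 14.9 FPKM in control and 5.29, 15.3, 2.28 and 1.51 FPKM in cKO libraries, which overlapped.

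Without any overlap between the groups were 11 of the 118 lincRNAs. In 7 of them (5.93%) every cKO library was below every control library, and in 4 (3.39%) above, against 2.91% and 3.31% of all genes tested. Gm6639, Gm13814 and Gm47064, which are among the 11, reached 5 FPKM only in the mean of the group where they were higher. After rescaling to TPM, only 3 of these 11 had no overlap, Gm13817 and Gm13814 lower and Gm28875 higher, so that the separation of the other 8 rests on the deposited scaling. Gm11635 (lower) and Tmem250-ps (higher), which overlapped in FPKM, brought the TPM count to 5, against 1.82% lower and 4.11% higher over all genes. The count was 20, 21 and 25 without control replicate 1, control replicate 4 and cKO replicate 1, where fewer libraries have to be separated. The share of all genes is not given for these settings, so these counts cannot be set against a background.

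**Figure D3:**
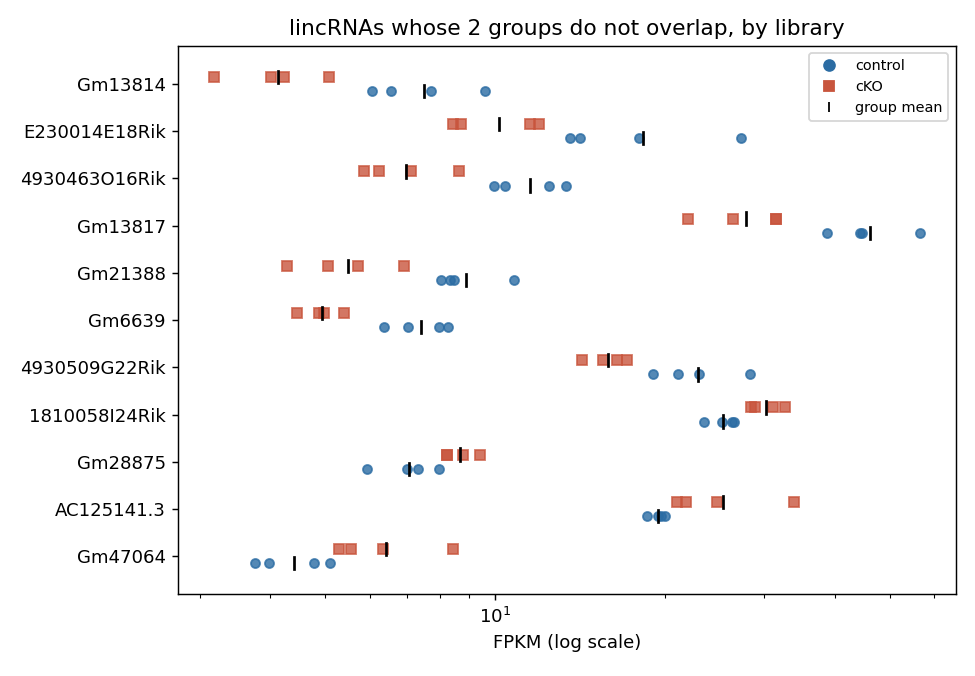
FPKM (log scale) of the 11 lincRNAs whose groups did not overlap, with 1 point per library (circles, control; squares, cKO) and a bar at each group mean, n = 4 each. The 7 at the top were lower and the 4 at the bottom higher in cKO, with adjusted p from 0.187 upwards.

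Gm6639 (ENSMUSG00000105662, chromosome 3, 35597152 to 35666163, minus strand), a spliced transcript without a known function, had the smallest p of the set. Its control mean alone reached 5 FPKM, so its place in the set rests on the group where it was higher. It had 6.37, 7.01, 8.24 and 7.95 FPKM in control libraries and 5.41, 4.99, 4.46 and 4.87 FPKM in cKO libraries. The log2 fold change was -0.57 (SE 0.11, limma adjusted p = 0.187; 95% interval from -0.83 to -0.31). It was the 1 lincRNA called with limma array weights, where its adjusted p was 0.0441. That setting called 67 of the 15513 genes tested, against 4 in the main fit. Gm21388 lies on the same chromosome (34826669 to 34879283, plus strand), 174208 bases from Sox2, while Atp11b lies 87943 bases from Gm6639. Gm21388 had 8.02, 8.33, 10.8 and 8.45 FPKM in control and 6.91, 5.72, 5.06 and 4.28 FPKM in cKO libraries (log2 fold change -0.70, SE 0.16, limma adjusted p = 0.22).

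Of the separated lincRNAs, 4 formed 2 close pairs. Gm13814 (chromosome 2, 92483926 to 92529809, plus strand) and Gm13817 (92529694 to 92540980, minus strand) run towards each other and share 116 bases at their ends, where fragments cannot be told apart without strand. Gm13817 had 56.6, 38.7, 44.6 and 44.3 FPKM in control and 31.4, 31.4, 26.4 and 21.9 FPKM in cKO libraries (log2 fold change -0.73, SE 0.15, limma adjusted p = 0.204). Gm13814, at 5 FPKM or more in the control mean alone, had 9.60, 6.06, 7.69 and 6.54 FPKM in control and 5.08, 4.23, 4.01 and 3.18 FPKM in cKO libraries (log2 fold change -0.84, SE 0.18, limma adjusted p = 0.207). Both were lower in every cKO library under both scalings.

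On chromosome 10, 4930463O16Rik (84488293 to 84497435) and E230014E18Rik (84518045 to 84523270) lie on the plus strand with 20609 bases between them, before Ckap4, the gene of an ER membrane protein. 4930463O16Rik had 9.94, 13.4, 12.4 and 10.4 FPKM in control and 7.09, 8.64, 6.22 and 5.87 FPKM in cKO libraries (log2 fold change -0.73, SE 0.15, limma adjusted p = 0.187). E230014E18Rik had 13.6, 27.3, 18.02 and 14.1 FPKM in control and 11.5, 11.96, 8.70 and 8.43 FPKM in cKO libraries (log2 fold change -0.80, SE 0.23, limma adjusted p = 0.309). Ckap4 had a log2 fold change of 0.10 (SE 0.12), with the opposite sign. The seventh, 4930509G22Rik (chromosome 16, 11178176 to 11192292, plus strand), had 19.1, 23.0, 28.3 and 21.1 FPKM in control and 16.4, 17.1, 15.6 and 14.3 FPKM in cKO libraries (log2 fold change -0.51, SE 0.13, limma adjusted p = 0.241). E230014E18Rik and 4930509G22Rik were chosen after their values were seen.

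For Gm6639, Gm21388, 4930463O16Rik and E230014E18Rik, 4 of these 7 lower lincRNAs, the window of 300 bases around the RefSeq start is shown, with 250 before the start and 50 after. Capitals mark 2 kinds of word on either strand, CCAAT and the A-MYB type words (TAACNG or CAACNG, with G or T at N). The window of E230014E18Rik belongs to a RefSeq start 342 bases before that of the table, and that of Gm21388 to a start 110 bases before.
Gm6639 window, chr3:35666114-35666413, minus strand: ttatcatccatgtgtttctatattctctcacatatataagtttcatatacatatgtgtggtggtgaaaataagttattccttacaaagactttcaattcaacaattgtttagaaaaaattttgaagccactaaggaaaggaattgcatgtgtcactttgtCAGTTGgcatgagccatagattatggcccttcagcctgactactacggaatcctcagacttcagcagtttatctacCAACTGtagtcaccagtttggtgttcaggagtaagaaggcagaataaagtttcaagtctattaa
Gm21388 window, chr3:34826309-34826608, plus strand: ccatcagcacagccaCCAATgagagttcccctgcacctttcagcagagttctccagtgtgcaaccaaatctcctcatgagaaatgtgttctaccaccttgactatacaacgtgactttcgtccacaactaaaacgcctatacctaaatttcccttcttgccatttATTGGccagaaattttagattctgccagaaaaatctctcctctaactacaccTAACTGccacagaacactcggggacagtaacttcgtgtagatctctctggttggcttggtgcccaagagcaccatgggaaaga
4930463O16Rik window, chr10:84488043-84488342, plus strand: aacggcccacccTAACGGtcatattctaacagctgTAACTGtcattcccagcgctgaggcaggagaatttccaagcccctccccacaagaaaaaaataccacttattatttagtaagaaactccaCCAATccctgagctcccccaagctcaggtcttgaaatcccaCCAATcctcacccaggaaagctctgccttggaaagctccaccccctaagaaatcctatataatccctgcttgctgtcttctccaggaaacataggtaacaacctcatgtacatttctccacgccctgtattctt
E230014E18Rik window, chr10:84517453-84517752, plus strand: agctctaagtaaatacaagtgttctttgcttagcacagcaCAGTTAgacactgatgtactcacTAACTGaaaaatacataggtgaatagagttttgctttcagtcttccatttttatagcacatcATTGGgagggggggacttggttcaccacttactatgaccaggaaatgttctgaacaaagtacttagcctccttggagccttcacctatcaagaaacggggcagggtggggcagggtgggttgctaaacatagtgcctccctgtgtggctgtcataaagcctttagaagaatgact
Each of these 4 windows held an A-MYB type word, and those of Gm6639, 4930463O16Rik and E230014E18Rik held 2. Over the 58 lincRNAs with a RefSeq window within 1000 bases of their start, 27 (46.6%) held such a word and 28 (48.3%) held CCAAT. Among all 32851 RefSeq windows the shares were 28.3% and 37.4%. Shares for other lincRNAs or other genes expressed in testis are not given, so whether the difference is particular to this set was not tested. A match is a string of letters, not a measured binding site.

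The 4 separated lincRNAs that were higher in cKO libraries were of several kinds. Gm47064 (chromosome 9, 120743590 to 120751143), at 5 FPKM or more in the cKO mean alone, had 3.77, 3.98, 4.78 and 5.10 FPKM in control and 5.29, 6.34, 5.56 and 8.42 FPKM in cKO libraries (log2 fold change 0.52, SE 0.17, limma adjusted p = 0.36). 1810058I24Rik (chromosome 6, 35252654 to 35263496), which RefSeq lists as coding, had 26.3, 26.5, 23.5 and 25.3 FPKM and 28.4, 28.9, 31.0 and 32.6 FPKM (log2 fold change 0.25, SE 0.09, limma adjusted p = 0.39). Gm28875 (chromosome 12, 104925501 to 104926689), a transcript of a single exon, had 7.96, 5.94, 7.32 and 6.98 FPKM and 9.41, 8.22, 8.23 and 8.77 FPKM (log2 fold change 0.30, SE 0.11, limma adjusted p = 0.418). AC125141.3 (chromosome 17, 27354111 to 27367492), the host of miR-7217 and other microRNA arms shown above, had 18.6, 19.4, 19.99 and 19.6 FPKM and 33.9, 21.0, 24.7 and 21.8 FPKM (log2 fold change 0.36, SE 0.15, limma adjusted p = 0.458). Its neighbour AC125141.2, which starts 35415 bases away on the opposite strand, had -0.20 (SE 0.22). The fifth smallest p among the higher ones was that of AU020206, with 39.4 ± 8.91 and 48.7 ± 4.73 FPKM (SD, n = 4 each), and its groups overlapped.

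The remaining lincRNAs with an unadjusted p below 0.05 were all lower in cKO libraries and overlapped between the groups. They were 1700009C05Rik, 4933406C10Rik, Gm11635, Gm26799, Gm33301 and Gm31126, with log2 fold changes from -0.81 for Gm26799 to -0.28 for 4933406C10Rik. These 6 were named after their values were seen.

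Known lncRNAs were followed as fixed lists that also take in genes below 5 FPKM and other biotypes. Of the snoRNA host genes, which release small nucleolar RNAs from their introns, 13 were tested, with 1 higher and none lower at an unadjusted p below 0.05 and a median log2 fold change of 0.08. The abundant lincRNAs among them were Snhg6, Snhg18 and Snhg20. Snhg6 had 14.4 ± 2.40 and 15.4 ± 1.66 FPKM, Snhg18 7.999 ± 1.79 and 10.1 ± 1.84 FPKM and Snhg20 7.01 ± 3.32 and 6.71 ± 0.533 FPKM in control and cKO (SD, n = 4 each). None was called (limma adjusted p from 0.575 to 0.972), and the difference exceeded the SD of both groups for Snhg18 alone.

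Of the microRNA host genes 4 were tested, with a median of -0.05 and none at an unadjusted p below 0.05. Among those below 1 FPKM, which were not tested, Mir142hg had 0.275 ± 0.206 FPKM in control and 1.286 ± 0.082 FPKM in cKO libraries (SD, n = 4 each). Mir99ahg, Mir155hg and Mirg, also untested, had lower means in cKO. Mir17hg, whose microRNAs are shown above, had 14.2, 8.98, 8.41 and 9.06 FPKM in control and 10.2, 7.63, 7.40 and 7.31 FPKM in cKO libraries. Replicate 1 was the highest library of each group, and the groups overlapped (log2 fold change -0.30, SE 0.18, limma adjusted p = 0.624). Of the imprinted non-coding RNAs 2 were tested, neither at an unadjusted p below 0.05, and none was in the abundant set.

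Of the other known lncRNAs 6 were tested, with a median of -0.09 and none at an unadjusted p below 0.05. 2900097C17Rik (Norad in RefSeq), which binds PUMILIO proteins, had 67.6, 33.3, 35.2 and 33.6 FPKM in control and 39.7, 34.3, 34.6 and 34.3 FPKM in cKO libraries. Control replicate 1 stood apart, and the log2 fold change of -0.18 became 0.07 without it. 1700020I14Rik (Oip5os1 in RefSeq), also known as Cyrano, had 20.6 ± 3.70 and 20.1 ± 1.82 FPKM (SD, n = 4 each; log2 fold change -0.02, 95% interval from -0.32 to 0.27). Epb41l4aos, a small snoRNA-bearing transcript, had 40.3, 10.01, 11.01 and 8.23 FPKM in control and 13.2, 15, 9.93 and 11.9 FPKM in cKO libraries, and its log2 fold change of -0.16 became 0.35 without control replicate 1.

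The divergent lincRNAs were compared with the coding gene that starts beside them. In 20 of the 21 pairs both genes were tested. None of the 20 coding partners had an unadjusted p below 0.05, against 2 of the 20 lincRNAs and 10.3% of all genes tested, and the medians of the log2 fold changes were 0.01 and -0.09. In 15 of the 20 pairs the lincRNA had the lower level per length.

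**Figure D4:**
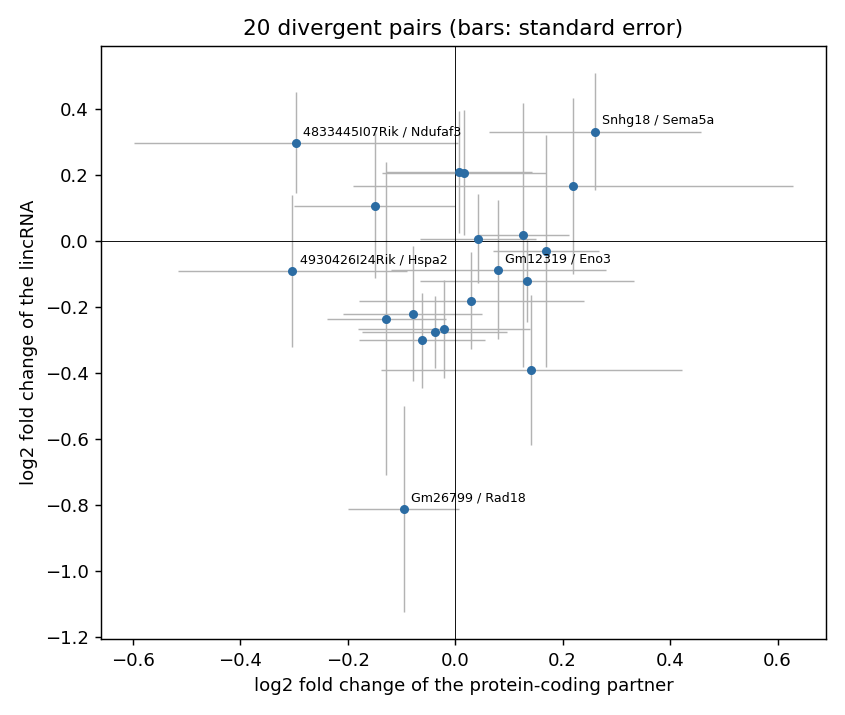
Log2 fold change (cKO over control) of each lincRNA against that of its divergent protein-coding partner for 20 pairs; bars are standard errors. Partners lie between -0.30 and 0.26, and Gm26799 beside Rad18 is lowest among the lincRNAs at -0.81.

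Hspa2, the testis chaperone needed for meiosis in spermatocytes, starts 194 bases from 4930426I24Rik, and the window around its start is shown with the same words in capitals.
Hspa2 window, chr12:76404120-76404419, plus strand: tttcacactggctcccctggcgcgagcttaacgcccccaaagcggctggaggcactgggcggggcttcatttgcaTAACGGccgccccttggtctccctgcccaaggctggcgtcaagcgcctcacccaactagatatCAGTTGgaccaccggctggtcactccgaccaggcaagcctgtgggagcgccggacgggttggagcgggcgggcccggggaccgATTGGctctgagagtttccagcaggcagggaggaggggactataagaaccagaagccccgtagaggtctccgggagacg
Hspa2 had 389.3 ± 84.9 FPKM in control and 313.4 ± 62.0 FPKM in cKO libraries (SD, n = 4 each; log2 fold change -0.30, SE 0.21, limma adjusted p = 0.677). 4930426I24Rik had 9.54, 5.55, 5.97 and 5.45 FPKM and 6.99, 7.27, 6.40 and 4.11 FPKM (log2 fold change -0.09, SE 0.23, limma adjusted p = 0.924). Gm26799 starts 91 bases from Rad18, which encodes a ubiquitin ligase of DNA damage tolerance, and had 15.9, 8.06, 11.2 and 6.82 FPKM in control and 8.38, 6.95, 3.83 and 4.46 FPKM in cKO libraries (log2 fold change -0.81, SE 0.31, limma adjusted p = 0.438). Rad18 had 22.6 ± 1.25 and 21.3 ± 2.49 FPKM (SD, n = 4 each; log2 fold change -0.10, SE 0.10). The difference between the 2 genes of a pair was not tested. 4930426I24Rik and Gm26799 were chosen after their values were seen.

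Over all 118 lincRNAs, 89 distinct nearest coding genes were tested, of which 8 had an unadjusted p below 0.05, near the 10.3% of all genes tested, and none an adjusted one, with a median log2 fold change of 0.02. For the abundant and the separated lincRNAs the neighbours were not called either. Grhl3, next to 1700029M20Rik, had 0.56 (SE 0.18, limma adjusted p = 0.342) and Tspan9, next to 9330102E08Rik, 0.37 (SE 0.14, limma adjusted p = 0.435), both with the opposite sign of the lincRNA. Atp11b and Slc35c1, next to Gm6639 and Gm13814, had 0.08 and 0.13, and Chst1, next to Gm13817, -0.19.

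The level of the set as a whole differed between libraries. After each was centred on its own mean over 8 libraries, the median of the 118 was 0.03, 0.03, 0.19 and 0.04 in control replicates 1 to 4 and 0.12, -0.06, -0.10 and -0.25 in cKO replicates 1 to 4, on a log2 scale. cKO replicate 1 lay within the control range and the other cKO libraries below it. In 48 of the 118 lincRNAs cKO replicate 4 was the lowest library, and in 40 control replicate 3 was the highest. Control replicate 1 was the highest library in 30 and the lowest in 34, so that the lincRNAs deviated in both directions there. The 31 lincRNAs with testis clone names had medians from -0.07 to 0.32 in control and from -0.37 to 0.19 in cKO libraries.

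Markers of some testis cell types also differed between these libraries. Of the 10 pachytene spermatocyte markers, 9 were in the table, 7 were tested and 4 were lower at an unadjusted p below 0.05, among them Ldhc and Adam3. Pgk2, also tested, had a log2 fold change of -0.021 (SE 0.195). Below 1 FPKM and not tested, Hist1h1t had means of 0.28 and 0.67 FPKM in control and cKO, and Ovol2 0.87 and 0.78 FPKM. The mean log2(FPKM + 0.1) of the 9 pachytene markers was 3.80, 3.84, 4.07 and 3.56 in control and 3.76, 3.64, 3.52 and 3.25 in cKO libraries, and their summed level was 849.5 to 1381 and 661.3 to 1020 FPKM. For this mean the highest and the lowest library were the same as for the lincRNAs. All 7 macrophage markers were detected, 4 were higher at an unadjusted p below 0.05, and their sum was 15.6 to 30.8 FPKM in control and 34.4 to 45.3 FPKM in cKO libraries. Of 5 Leydig markers tested 3 were higher at an unadjusted p below 0.05, with a median log2 fold change of 0.64, and the sums of the listed 7 overlapped, at 19.8 to 43.6 and 31.2 to 48.6 FPKM. Among these 5, Hsd17b3 went the other way, with a log2 fold change of -0.712 (SE 0.379). The median of 4 endothelial markers was 0.51, with 1 of them higher. For 9 Sertoli markers the sums were 999.5 to 1343 and 1336 to 1579 FPKM, most of it from Clu with a mean of 939.5 FPKM, and none had an unadjusted p below 0.05. Of 5 peritubular markers tested, 1, Acta2, was higher at an unadjusted p below 0.05 (log2 fold change 0.569, SE 0.175), and the median was 0.28. The 8 spermatogonial markers had a median log2 fold change of 0.06, and 1, Stra8, was lower at an unadjusted p below 0.05 (-1.465, SE 0.456). The mean log2(FPKM + 0.1) of leptotene and zygotene markers was 2.90 ± 0.14 in control and 3.02 ± 0.17 in cKO libraries (SD, n = 4 each), a difference smaller than either SD, and that of round spermatid markers was -0.49 ± 0.26 and -0.51 ± 0.17 (SD, n = 4 each). Of 7 leptotene and zygotene markers tested, 1, Meiob, was higher at an unadjusted p below 0.05 (log2 fold change 0.69, SE 0.212). The part of cell composition in the lincRNA levels was not tested.

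**Figure D5:**
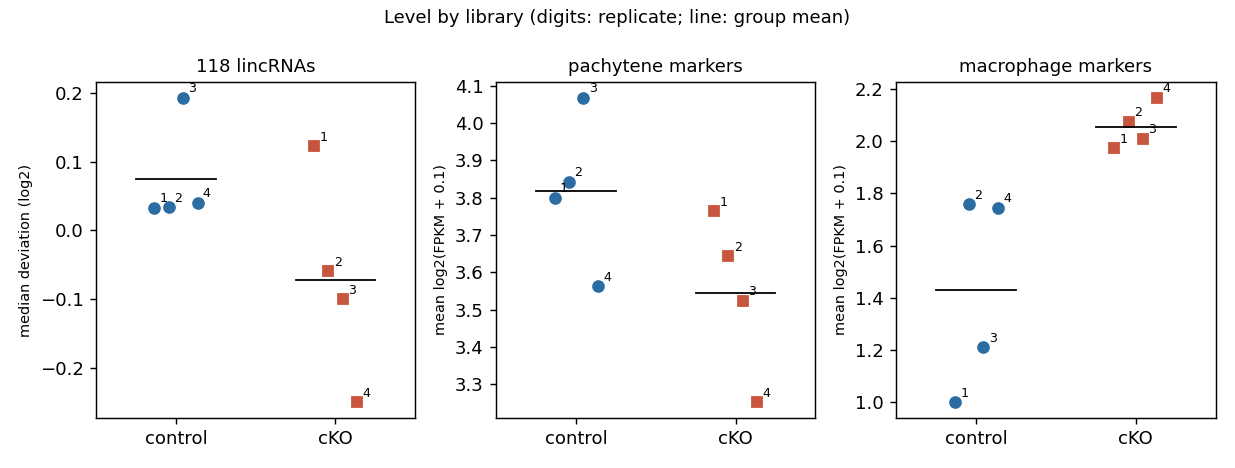
Left, median deviation of the 118 lincRNAs from their own means (log2); middle and right, mean log2(FPKM + 0.1) of pachytene spermatocyte and macrophage markers. Points are libraries with their replicate number and lines are group means (n = 4 each); control replicate 3 is highest and cKO replicate 4 lowest for the lincRNAs and the pachytene markers.

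The summed FPKM of the 118 lincRNAs was 2316 to 3347 in control and 2053 to 2605 in cKO libraries, with means of 2720 ± 453 and 2284 ± 233 (SD, n = 4 each). The cKO mean was 0.84 times the control mean, and 0.884 times without Gm26917. The groups overlapped in both sums. No test was made of this sum, because the lincRNAs were selected on their level. They took 0.583% to 0.775% of all fragments in control and 0.528% to 0.603% in cKO libraries. The 0.775% was that of control replicate 1, where Gm26917 alone held 30736 of the 108276 fragments on the set. The share without Gm26917 is not given.

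Some lincRNAs varied more within a group than between the groups. Besides Gm26917 and Gm45027, the largest within-group spread was that of 1700104B16Rik, which starts 14 bases from Gtf2e2, the gene of a general transcription factor subunit. It had 2.75, 9.01, 16.2 and 12.8 FPKM in control and 6.79, 8.67, 8.05 and 5.71 FPKM in cKO libraries, a within-group SD of 0.81 on the log2 scale against a median of 0.30 over the set.

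Around the threshold of 5 FPKM, levels differed little. Gm11335, Gm20300 and Gm26611 were just inside, with control means of 5.07, 5.30 and 5.12 FPKM and cKO means of 5.40, 4.96 and 5.05 FPKM. 1700067G17Rik, 1810012K08Rik and Gm31181 were just outside, with means over all libraries of 4.95, 4.93 and 4.91 FPKM. Fragments on genes numbered 13978342 to 17867570 in control and 15494873 to 19583091 in cKO libraries, so that 1 fragment per kilobase was worth less than 0.1 FPKM.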

How the data were processed

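Bulk RNA-seq of whole testes from 4 control and 4 cKO mice was used. The authors deposited FPKM values for 54532 genes, made by a sequencing company's software; the aligner, counter and use of strand are not given in the sources used here, and GRCm38 is named in the submitters' notes. FPKM multiplied by gene length gave whole fragments in 100% of values above 0 (tolerance 0.02). Coordinates were checked against GENCODE vM21, where 116 of the 118 lincRNAs had equal start and end. Log2(FPKM + 0.1) was tested with limma 3.58.1 (R 4.3.3; lmFit, eBayes with trend) over the 15513 genes of all biotypes at a mean of at least 1 FPKM, with Benjamini-Hochberg adjustment, on log2 fold changes that understate low genes. The procedure was tested on simulated data. The lincRNAs, marker lists and lncRNA lists were chosen with earlier results of these data known.

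Named were the 10 most abundant lincRNAs, the 5 with the smallest p in each direction, those in the lncRNA lists, 3 on either side of the threshold, the 3 with the largest within-group spread, any called, and the nearest coding genes of the first 2 kinds; others are marked. Sequences are from RefSeq (GRCm38.p6). Libraries of 1 group differed by 3.93 to 80.6 times the sampling noise, and each counted as 1 sample. Nothing in the labels gives separate litters or days. The study's methods describe the controls as littermates with the same treatments, but which mice shared a litter is not given. Alternatives were other pseudocounts, filters, scalings, models, thresholds of abundance, a replicate block, and each library left out.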

Additional observations from a re-analysis of the deposited data

Results flagged for a closer look

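Within groups of 4 libraries, a library was singled out when its gap to the nearest other one, divided by the range of the group, exceeded Dixon's 95% critical value. This held in 11 of 70 groups of values for the named lincRNAs and library measures. For independent groups chance gives about 1 in 20, or 3.50. These groups share libraries, and some lincRNAs were named for their spread, so 3.50 is no strict yardstick here. Control replicate 1 accounted for 5 of the 11. Its level of Gm26917 was 704.5 FPKM (others 37.1 to 133.0), of 2900097C17Rik 67.6 FPKM (33.3 to 35.2), of Epb41l4aos 40.3 FPKM (8.23 to 11.01) and of Mir17hg 14.2 FPKM (8.41 to 9.06), and its mitochondrial share was 0.464% of fragments (2.97% to 3.39%). For cKO replicate 1, 2900097C17Rik was high at 39.7 FPKM (34.3 to 34.6), Mir17hg high at 10.2 FPKM (7.31 to 7.63) and Snhg6 low at 12.9 FPKM (15.9 to 16.5). The others were 1700020I14Rik in control replicate 4, at 26.1 FPKM (18.4 to 19.02), Gm21388 in control replicate 3, at 10.8 FPKM (8.02 to 8.45), and Gm26611 in cKO replicate 4, at 3.30 FPKM (5.58 to 5.67).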

How the results depend on the processing

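No lincRNA had an adjusted p below 0.05 under any alternative but limma array weights, which called 1, Gm6639, and gave 40 at an unadjusted p below 0.05 in place of 18, with 18.1% of all genes. Over all genes tested, array weights gave 67 adjusted calls, against 4 in the main fit. With a minimum of 10 or 3 FPKM the unadjusted count was 9 of 57 and 33 of 193, against 10.3% of all genes tested. The count without overlap, 11, was 5 after rescaling to TPM, 5 and 19 at 10 and 3 FPKM, and 7 among those that overlap no other gene. The shares of all genes tested were 1.82% lower and 4.11% higher in TPM, and 2.91% lower and 3.31% higher in FPKM. With each library left out, the adjusted count stayed 0, the unadjusted count ranged from 11 to 30, the count without overlap from 11 to 25, the median log2 fold change from -0.20 to -0.07 and the log2 ratio of sums from -0.32 to -0.14. The share of all genes at an unadjusted p below 0.05 then ranged from 5.81% to 14.4%, and the share without overlap is not given. The median was -0.07 after rescaling to TPM, where that of all genes was 0.08. Libraries with the same replicate number deviated together little (correlations of deviations from -0.01 to 0.17), which cannot show whether mice shared a litter. With the replicate block 27 had an unadjusted p below 0.05, with 12.9% of all genes, and 0 an adjusted one. Leaving out Gm26917 and the RefSeq coding and pseudogene loci, chosen after seeing the data, left 110 lincRNAs. Of these, 17 (15.5%) had an unadjusted p below 0.05, against 10.3% of all genes tested. Without overlap were 10 of the 110, 2.73% higher and 6.36% lower, against 3.31% and 2.91% of all genes tested. Of 32 named lincRNAs, 11 changed sign in some of 21 alternatives, none with a call, and the cause was not tested. With each library left out, their log2 fold changes ranged from -1.17 to 0.24 for Gm26917, from -0.26 to 0.023 for Gm12319, from -0.22 to 0.027 for 1700018B24Rik, from -0.27 to 0.067 for 2900097C17Rik, from -0.072 to 0.095 for 1700020I14Rik, from -0.41 to 0.35 for Epb41l4aos, from -0.77 to 0.073 for 1700104B16Rik, from -0.16 to 0.32 for Snhg20, from -0.13 to 0.33 for Gm11335, from -0.15 to 0.016 for Gm20300 and from -0.19 to 0.18 for Gm26611. Array weights gave 0.041 for 1700020I14Rik, 0.12 for Epb41l4aos, -0.021 for Gm11335 and 0.001 for Gm20300, TPM gave 0.055 for 1700020I14Rik and 0.07 for Gm26611, and median centring gave 0.012 for Gm26611.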
